A study of Caenorhabditis elegans with 10 samples.

Results

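Molecular chaperones of the Hsp70, Hsp90 and chaperonin systems, with the heat shock transcription factor gene hsf-1, were followed in untreated Caenorhabditis elegans. The set holds every gene whose symbol in the platform annotation is dnj, cct or pfd followed by a number, together with hsp-1, hsp-70, hsp-90, hsp-110 and hsf-1. That gave 48 of the 17118 genes measured: 29 J-domain protein genes, 8 genes of the chaperonin CCT, 6 of prefoldin and the 5 named ones. Each gene was represented by the probe set with a single symbol and the highest mean over all arrays. For 25 of the 48 genes that probe set was of the plain class, while 18 were of the array's class shared by related transcripts and 5 of the class that can cross-hybridise.

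The mutant strain, xpa-1 (ok698) I, carries a deletion in the nematode counterpart of XPA, a scaffold protein of nucleotide excision repair. The wild type was Bristol N2. Both strains were untreated, of mixed stage and fed on HT115(DE3) bacteria at one temperature, and each of the 5 arrays per strain held total RNA of a separate collection of worms from many plates. The sources used here do not give whether the mutant had been outcrossed to N2.

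Hsp70 proteins bind exposed hydrophobic stretches of unfolded proteins and let go of them in a cycle driven by ATP. J-domain proteins bring the client and switch on ATP hydrolysis, and nucleotide exchange factors such as Hsp110 reset the cycle. Hsp90 takes over clients that are nearly folded, among them kinases and receptors. Prefoldin hands new actin and tubulin chains to CCT, a double ring in which they fold. HSF-1 drives chaperone genes after heat and also in growing larvae. The label of cytosolic chaperones holds for most members by their known roles but not for all J-domain proteins, since several act in the endoplasmic reticulum or in mitochondria. Nor does the label hold for hsf-1, the gene of a transcription factor, which is counted among the chaperone genes throughout.

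The xpa-1 transcript lay between 0 and 1.58 in log2 signal on the mutant arrays and between 6.38 and 6.88 on the N2 arrays (difference -5.90, SE 0.304, limma adjusted p = 5.17e-05), which fits the strain labels. Array medians lay between 4.00 and 4.25. No pair of arrays held identical values. The deposited signals were rounded to whole numbers before the log, so values under 4 move in coarse steps and 0 is the lowest value possible. Of the 48 genes, 4 had a mean under 4 (cct-3, cct-8, hsp-70 and dnj-24), and 2 of these were listed at 0 on at least 1 array. Arrays have no read depth, and their number limits the precision. Because each array held whole animals, fewer cells of a type and less RNA per cell cannot be told apart. Different genes are read by different probes, and no level of one gene is set against that of another.

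None of the chaperone genes passed the test between the strains. In limma, 0 of 48 had an adjusted p under 0.05 over all genes, against 0.111% of all genes, and the smallest adjusted p among the 48 was 1. At an unadjusted p under 0.05 there was 1 gene, cct-3, against 3.33% of all genes. For 0 of the 48 did the 5 xpa-1 arrays lie entirely above or below the 5 N2 arrays, against 0.374% of all genes. The median difference, xpa-1 minus N2, was 0.002 in log2 over the 48 genes and 0.02 over all genes, and 24 differences were above 0 and 23 below, with dnj-10 at 0. Leaving out single arrays moved this split, most of all N2 replicate 5: without it, 11 differences were above 0 and 37 below (median -0.04), while 51.2% of all genes were above 0.

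The intervals show how large a strain difference these arrays still allow. The 95% interval of the difference lay within 1.5-fold in both directions for 45 of the 48 genes, a limit chosen after the values were seen. The exceptions were cct-3, hsp-70 and dnj-24, all with means under 4. Of the 44 chaperone genes with a mean of at least 4, all 44 were inside that limit, while 81.5% of the 8678 genes of such a mean were. The median SD over the 10 arrays was 0.158 for these 44 genes and 0.211 for all genes with a mean of at least 4.

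**Figure D1:**
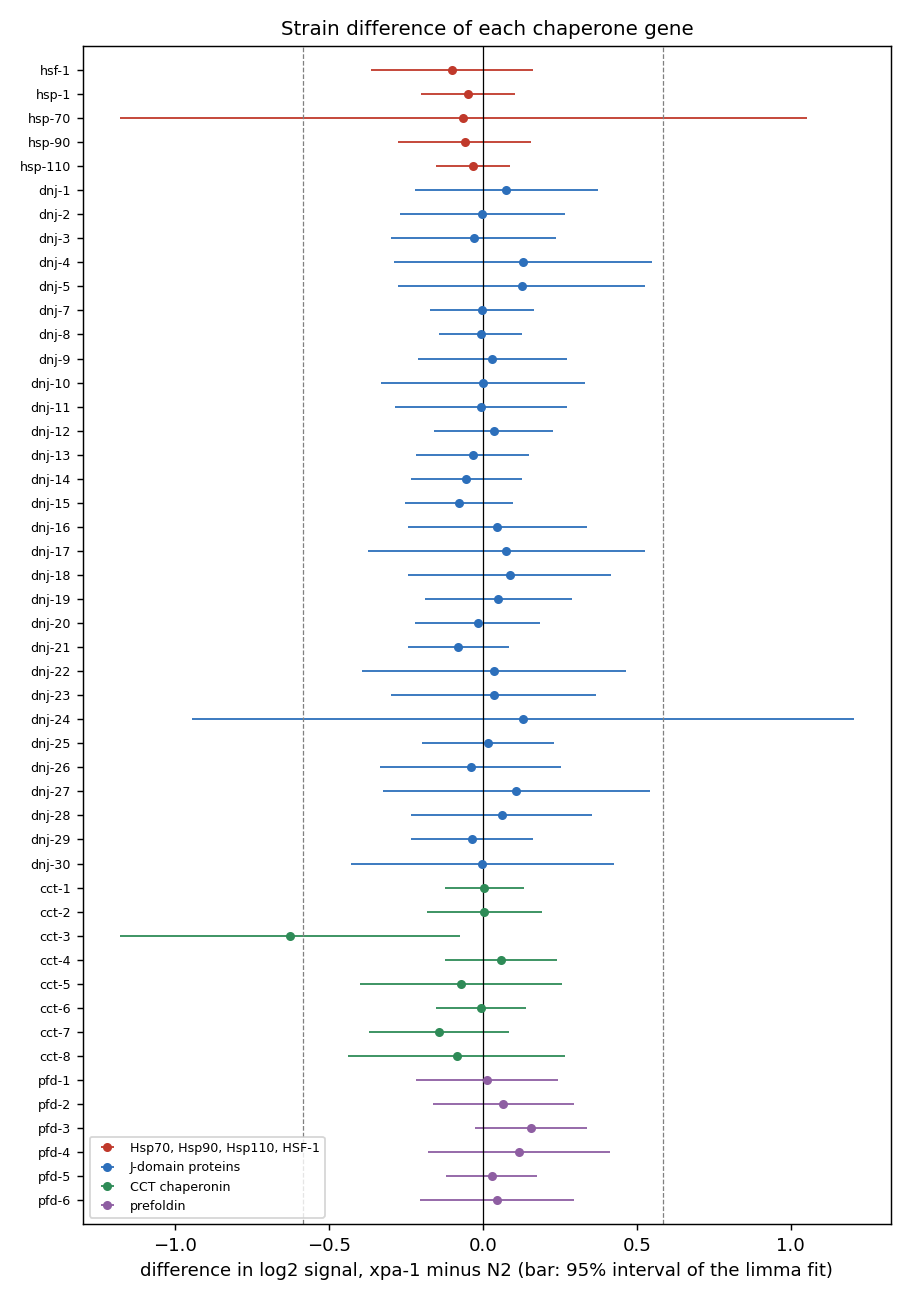
Difference in log2 signal between xpa-1 and N2 (xpa-1 minus N2, horizontal axis) for the 48 genes, with 95% intervals of the limma fit as bars and dashed lines at 1.5-fold. The intervals of 45 genes stay between the dashed lines, and only that of cct-3 (-1.18 to -0.08) leaves out 0.

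The abundant cytosolic chaperones gave nearly equal signals in both strains. The gene hsp-1 encodes the constitutive Hsp70 of the cytosol. It had log2 signals of 10.40, 10.34, 10.51, 10.48 and 10.58 on the xpa-1 arrays, replicates 1 to 5, and of 10.57, 10.55, 10.59, 10.47 and 10.38 on the N2 arrays. The strains overlapped over most of their range, and the difference was -0.05 (SE 0.068, 95% interval -0.20 to 0.10).

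Cytosolic Hsp90 is encoded by hsp-90, also known as daf-21. Its signals were 10.76, 10.57, 10.75, 10.77 and 10.94 on the xpa-1 arrays, against 11.04, 10.88, 10.68, 10.84 and 10.65 on the N2 arrays. The single highest value was that of N2 replicate 1, and the difference was -0.06 (SE 0.096, interval -0.28 to 0.16). A further probe set of hsp-90 differed by -0.02 (SE 0.073).

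The Hsp110 gene hsp-110 encodes the nucleotide exchange factor that works with Hsp70 and J-domain proteins in taking apart protein aggregates. The probe set that stood for it varied least of the 48, with an SD of 0.056 over the 10 arrays. Its mean was 8.86 ± 0.06 in xpa-1 and 8.89 ± 0.05 in N2 (SD, n = 5 each). The interval of the difference, -0.15 to 0.09, corresponds to between 0.899-fold and 1.06-fold. A further probe set of hsp-110 varied more, with an SD of 0.10 in xpa-1 and 0.16 in N2, and differed by -0.006 (SE 0.090).

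The heat-inducible Hsp70 gene hsp-70 (C12C8.1) was close to the lowest value of the scale. It read 1, 2, 2, 0 and 2.58 on the xpa-1 arrays and 1, 1.58, 2, 2.32 and 1 on the N2 arrays. Within each strain the steps of the low scale were larger than the difference of -0.06 (SE 0.494), and the 95% interval runs from 0.442-fold to 2.07-fold.

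The transcription factor gene hsf-1 (Y53C10A.12) had signals of 4.81, 4.91, 4.75, 4.81 and 4.81 on the xpa-1 arrays and of 5.21, 5.13, 4.81, 4.86 and 4.58 on the N2 arrays. The mutant arrays lay close together, and the N2 arrays reached both higher and lower. The difference was -0.10 (SE 0.117, interval -0.36 to 0.16). This probe set is of the class that can cross-hybridise. The second probe set of hsf-1 differed by -0.21 (SE 0.232). All 5 genes of this group had a difference below 0 (median -0.06), and each of the 5 intervals included 0. The share below 0 was 41.4% over all genes and 35.7% over those with a mean of at least 4, which hsp-70 did not reach. With 1 array left out at a time, 4 or 5 of the 5 stayed below 0, and the median ran from -0.10 without N2 replicate 5 to -0.03 without N2 replicate 3.

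**Figure D2:**
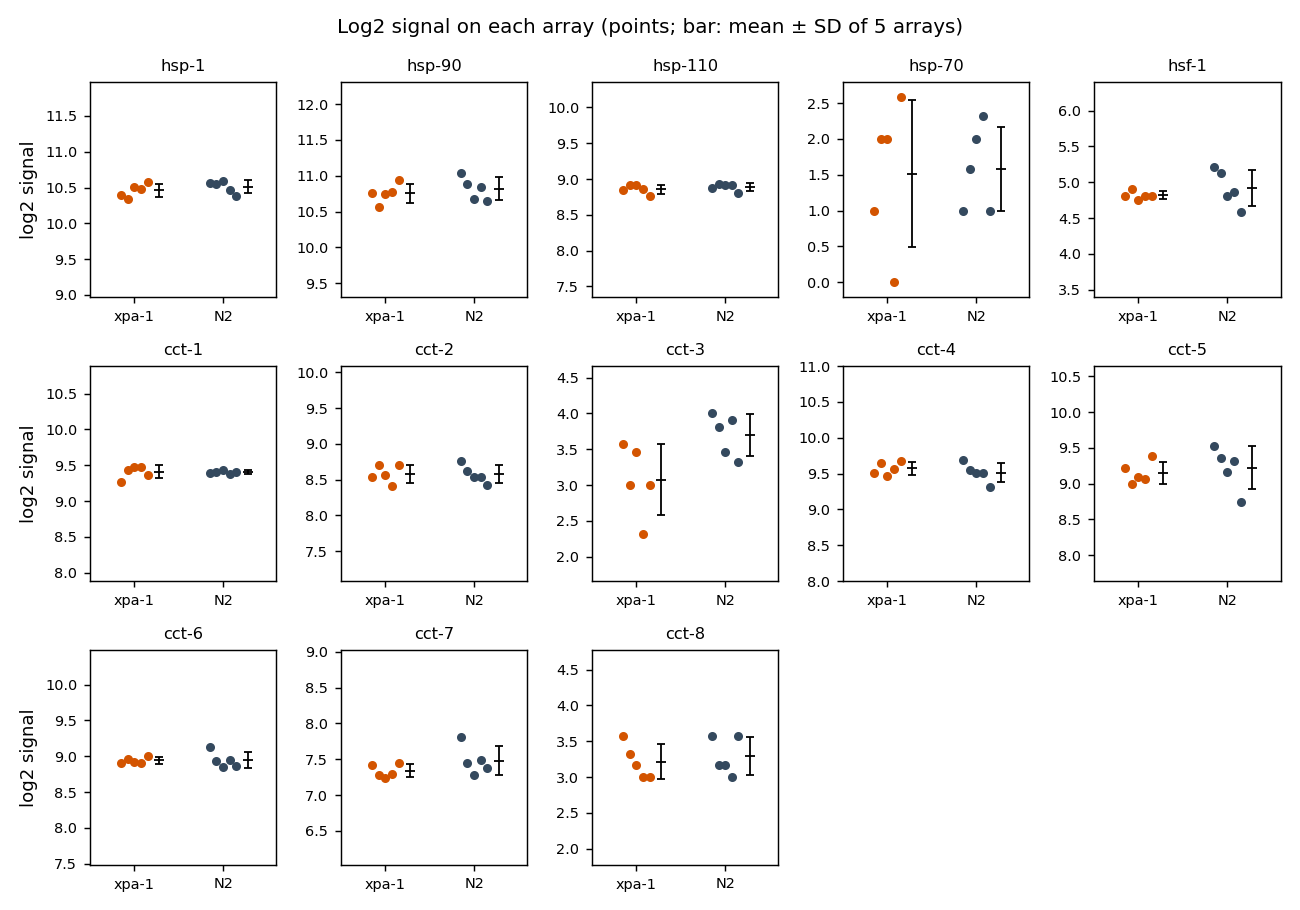
Log2 signal of the Hsp genes, hsf-1 and the 8 CCT subunit genes on each array, xpa-1 at the left and N2 at the right of each panel, with the mean ± SD of 5 arrays beside the points. Each vertical axis spans at least 3 log2 units, and the strains overlap in all 13 panels.

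The chaperonin CCT is built from 8 different subunits, each from its own gene. Bright signals were measured for 6 of the genes, and their differences ran from -0.14 for cct-7 to 0.06 for cct-4. The mean of cct-1 was 9.41 ± 0.09 in xpa-1 and 9.40 ± 0.02 in N2 (SD, n = 5 each), with an interval of -0.12 to 0.13. The means of cct-2 (8.58 in both strains) and cct-6 (8.94 in xpa-1 and 8.95 in N2) differed by 0.004 and -0.006. For cct-5 the difference was -0.07 (SE 0.146), with a wider interval of -0.40 to 0.26.

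The largest difference among the 48 genes was that of cct-3, the gene of the gamma subunit. Its log2 signals were 3.58, 3.00, 3.46, 2.32 and 3.00 on the xpa-1 arrays, against 4.00, 3.81, 3.46, 3.91 and 3.32 on the N2 arrays. The higher xpa-1 values overlapped with the lower N2 values, 3 of the 5 xpa-1 values lay below every N2 value, and all 10 were at or below 4, where the steps are coarse. The difference was -0.63 (SE 0.245, interval -1.18 to -0.08) and did not pass in limma (adjusted p = 1). The exact permutation test of this value, two-sided and added after it was seen, gave p = 0.0476, not adjusted for the 48 genes. The smallest p that 5 arrays against 5 can give in this test is 0.00794. With 1 array left out at a time, the unadjusted limma p of cct-3 ran from 0.0136 to 0.0686. Without xpa-1 replicate 4 the difference was -0.44, and it was -0.24 when 16 was added to each signal before the log.

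The other dim subunit gene, cct-8, read 3.58, 3.32, 3.17, 3.00 and 3.00 on the xpa-1 arrays and 3.58, 3.17, 3.17, 3.00 and 3.58 on the N2 arrays, a difference of -0.09 (SE 0.156). Further probe sets were available for cct-1, cct-2, cct-4, cct-5, cct-6 and cct-7, and all 7 of them had a difference below 0, from -0.14 to -0.02. Over all 15 CCT probe sets 12 were below 0, against 42.5% of all probe sets. These probe sets share their arrays and in part their transcripts, so they are not independent. The median difference of the 8 genes was -0.04, and 0.003 without N2 replicate 1.

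Prefoldin has 6 subunits, and its 6 genes had differences between 0.01 for pfd-1 and 0.16 for pfd-3, all above 0. The share above 0 was 54.7% over all genes and 63.5% over those with a mean of at least 4. The gene pfd-3 had signals of 7.59, 7.78, 7.52, 7.43 and 7.57 on the xpa-1 arrays and of 7.45, 7.37, 7.43, 7.57 and 7.29 on the N2 arrays. The strains overlapped between 7.43 and 7.57, and the interval of the difference was -0.03 to 0.34 (SE 0.081, limma adjusted p = 1). The gene pfd-4 read 7.88, 7.92, 7.69, 7.73 and 7.92 in xpa-1, against 7.81, 7.88, 7.82, 7.83 and 7.22 in N2. Here 1 array, N2 replicate 5, stood apart below all others.

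The same array was the lowest of the 10 for all 6 prefoldin genes, so that the direction of the group rested on it. Without N2 replicate 5, 1 of the 6 differences was above 0 and the median was -0.01, against 0.06 with all arrays. The means of pfd-2 (8.95 ± 0.09 in xpa-1 and 8.89 ± 0.20 in N2), pfd-5 (8.88 ± 0.08 and 8.85 ± 0.09 in the same order) and pfd-6 (7.02 ± 0.16 in xpa-1 and 6.98 ± 0.19 in N2; SD, n = 5 each) differed by less than the spread within N2.

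The J-domain protein genes were the largest group. Of the 29 genes, 15 differences were above 0 and 13 below, with a median of 0.02 and a range from -0.08 for dnj-21 to 0.13 for dnj-4 and dnj-24. Without N2 replicate 5, 8 of the 29 were above 0 and 21 below. Of the cytosolic partners of Hsp70, the gene dnj-13, of the class B type related to human DNAJB proteins, had signals of 8.83, 9.15, 9.10, 9.06 and 9.05 on the xpa-1 arrays and of 9.12, 9.23, 9.08, 8.99 and 8.94 on the N2 arrays. The strains overlapped widely (difference -0.03, SE 0.081, interval -0.22 to 0.15).

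The class A genes dnj-12 and dnj-19 encode co-chaperones with a zinc finger. For dnj-12 the signals were 8.42, 8.45, 8.49, 8.50 and 8.52 in xpa-1, against 8.53, 8.52, 8.48, 8.55 and 8.13 in N2. The xpa-1 arrays spread over 0.10, and N2 replicate 5 lay 0.29 below the lowest of them. The difference was 0.03 (SE 0.086), and that of dnj-19 was 0.05 (SE 0.106), with further probe sets of dnj-19 at 0.08 and 0.07. A second probe set of dnj-12 averaged 0.20 in xpa-1 and 0 in N2, at the lowest end of the scale.

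Among J-domain proteins with special sites of action, dnj-11, related to the ribosome-associated mammalian protein DNAJC2, had means of 8.44 ± 0.21 in xpa-1 and 8.44 ± 0.18 in N2 (SD, n = 5 each). The auxilin gene dnj-25, whose product recruits Hsp70 to uncoat clathrin vesicles, differed by 0.02 (SE 0.095). The cysteine string protein gene dnj-14, which acts on synaptic vesicles, had signals of 6.73, 6.88, 6.60, 6.91 and 6.67 in xpa-1 and of 6.66, 6.82, 6.85, 6.81 and 6.92 in N2. No array stood apart for dnj-14, and its difference was -0.05 (SE 0.080), while its second probe set differed by 0.15 (SE 0.099).

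The genes of the J-domain proteins of the endoplasmic reticulum did not pass either. The difference was -0.004 (SE 0.075) for dnj-7, related to the inhibitor of the kinase PKR, and -0.02 (SE 0.090) for dnj-20, related to mammalian DNAJB11. It was -0.04 (SE 0.089) for dnj-29, the Sec63 gene of the translocon. It was 0.11 (SE 0.192) for dnj-27, whose product has thioredoxin domains beside the J domain. Signals of dnj-27 were 4.95, 4.58, 5.25, 5.17 and 4.81 in xpa-1 and 5.09, 5, 4.46, 4.46 and 5.21 in N2, so both strains covered the same span.

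Of the mitochondrial members, dnj-21, the gene of the import motor subunit related to Tim14, had means of 6.51 ± 0.10 in xpa-1 and 6.59 ± 0.10 in N2 (SD, n = 5 each). The difference of -0.08 (SE 0.073) was the lowest of the J-domain genes and within the spread of the arrays. The gene dnj-10, related to the matrix protein Tid1, read 7.41, 7.43, 7.32, 7.12 and 6.70 in xpa-1, against 7.02, 7.31, 7.06, 7.34 and 7.25 in N2. The strain means were equal at 7.20, with xpa-1 replicate 5 below the other 9 arrays.

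The remaining J-domain genes named by size gave differences of -0.08 (SE 0.078) for dnj-15, 0.13 (SE 0.178) for dnj-5 and 0.13 (SE 0.186) for dnj-4. The probe set of dnj-5 is of the class that can cross-hybridise, and its further probe set differed by -0.01 (SE 0.077). Near the low end of the scale dnj-24 read 1.58, 2.81, 1.58, 1 and 1.58 in xpa-1 and 1.58, 2, 2.32, 0 and 2 in N2 (difference 0.13, SE 0.476). Apart from dnj-24, dnj-17 had the largest SD over the 10 arrays in this group, 0.313. Its signals were 7.56, 7.58, 7.02, 6.82 and 7.38 in xpa-1 and 7.59, 7.31, 7.24, 7.13 and 6.71 in N2, and each strain held arrays on both sides of the common mean (difference 0.08, SE 0.199).

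A second reading of the same transcripts came from 26 further probe sets of 23 of the genes, which the choice of probe sets had left aside. In limma 0 of the 26 passed over all probe sets, against 0.111% of all genes. At an unadjusted p under 0.05 there were 0 of the 26, against 3.33% of all genes. The differences of the 26 ran from -0.24 to 0.20, and 13 had the sign of the probe set that stood for the gene. The lowest was that of dnj-2, with means of 5.82 ± 0.19 in xpa-1 and 6.05 ± 0.14 in N2 (SD, n = 5 each), where the brighter probe set differed by -0.002. Another 2 probe sets with several symbols, 1 of them of dnj-2 and 1 of dnj-27, were left out.

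Over the 48 genes the median SD over the 10 arrays was 0.165. The median size of the strain difference was 0.048, and its median SE was 0.109. Over all genes these values were 0.316, 0.112 and 0.191 in the same order. For the 44 chaperone genes with a mean of at least 4 they were 0.158, 0.042 and 0.104. For all genes of such a mean they were 0.211, 0.072 and 0.133, nearer to the chaperone values. N2 replicate 5 was the lowest of the 10 arrays for 25 of the 48 genes. These were 16 of the 29 J-domain genes, 6 of 6 prefoldin genes, 2 of 8 CCT genes and hsf-1. Among all genes with a mean of at least 4 it was the lowest for 35.0%, and among the 44 chaperone genes of such a mean for 56.8%. The median deviation of the J-domain genes on this array was -0.27 from their own means and that of the prefoldin genes -0.31, against -0.10 for all genes with a mean of at least 4. With quantile normalization 18 of the 44 chaperone genes with a mean of at least 4 (40.9%) were lowest there, against 26.7% of all genes of such a mean.

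N2 replicate 1 stood at the other end, most often for the chaperonin. It was the highest of the 10 arrays for 6 of the 8 CCT genes, among them cct-3, whose mean was under 4. The share was 13.8% for all genes with a mean of at least 4. With quantile normalization it was the highest for 6 of the 8 too, against 1387 of the 8678 genes of such a mean. As deposited, it was the highest for 15 of the 48 genes, including 7 of the 29 J-domain genes, hsp-90 and hsf-1. The median deviation there was 0.25 for the CCT genes and 0.157 for the J-domain genes. For prefoldin it was -0.004 on this array, and xpa-1 replicate 2 was the single highest array for 3 of the 6 prefoldin genes.

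**Figure D3:**
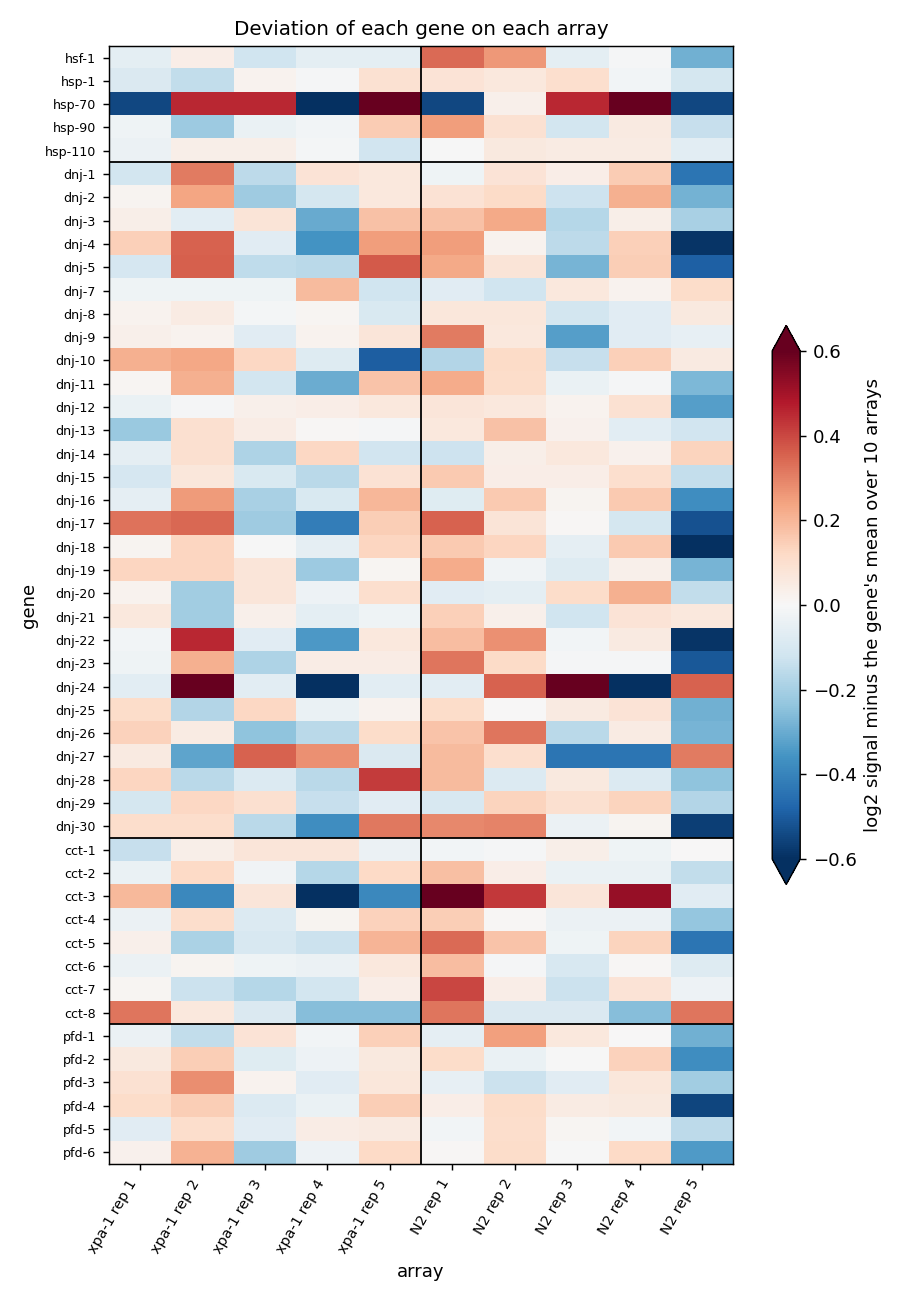
Log2 signal of each of the 48 genes (rows) on each array (columns, 5 xpa-1 arrays left of 5 N2 arrays) minus the gene's own mean over the 10 arrays, with colours capped at 0.6 in each direction. The column of N2 replicate 5 is the lowest for 25 genes, and the strains overlap in every row.

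Markers of developmental stage moved with these arrays. The 23 oocyte and maternal germline genes, whose dimmest member averaged 7.57, had list means from 9.37 to 9.68 on the xpa-1 arrays and from 9.08 to 9.74 on the N2 arrays. N2 replicate 5 had the lowest of all and N2 replicate 1 the highest. The 13 molting cycle genes, whose dimmest member averaged 4.47, ran from 5.44 to 6.45 on the xpa-1 arrays and from 5.18 to 6.75 on the N2 arrays, with N2 replicate 1 lowest and N2 replicate 5 highest. The part of stage makeup in the chaperone values was not tested.

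Of the other tissue lists, the neuronal list had the same arrays at its ends as the molting list, and the sperm and intestinal lists had others. The 20 body wall muscle genes had list means from 8.90 to 9.38 in xpa-1 and from 9.03 to 9.43 in N2. Of the 20, 19 had a difference below 0 (median -0.10), against 35.7% of all genes with a mean of at least 4. These genes share their arrays and are not independent, and their lowest list means were on xpa-1 replicates 5 (8.90) and 2 (8.93). The 15 neuronal genes had means from 5.31 to 6.03 in xpa-1 and from 4.98 to 6.05 in N2, with N2 replicate 1 the lowest and N2 replicate 5 the highest. For dnj-14, the gene of synaptic vesicles, that array read 6.92 and xpa-1 replicate 4 read 6.91. The lowest value of dnj-14, 6.60, was on xpa-1 replicate 3, where the neuronal list had its highest xpa-1 mean, 6.03. The 21 measured major sperm protein genes ran from 9.28 to 10.24 in xpa-1 and from 8.09 to 10.70 in N2, and the 11 intestinal genes from 9.44 to 9.66 in xpa-1 and from 9.46 to 9.64 in N2. In each of these 6 lists 0 genes passed the test in limma, against 0.111% of all genes.

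**Figure D4:**
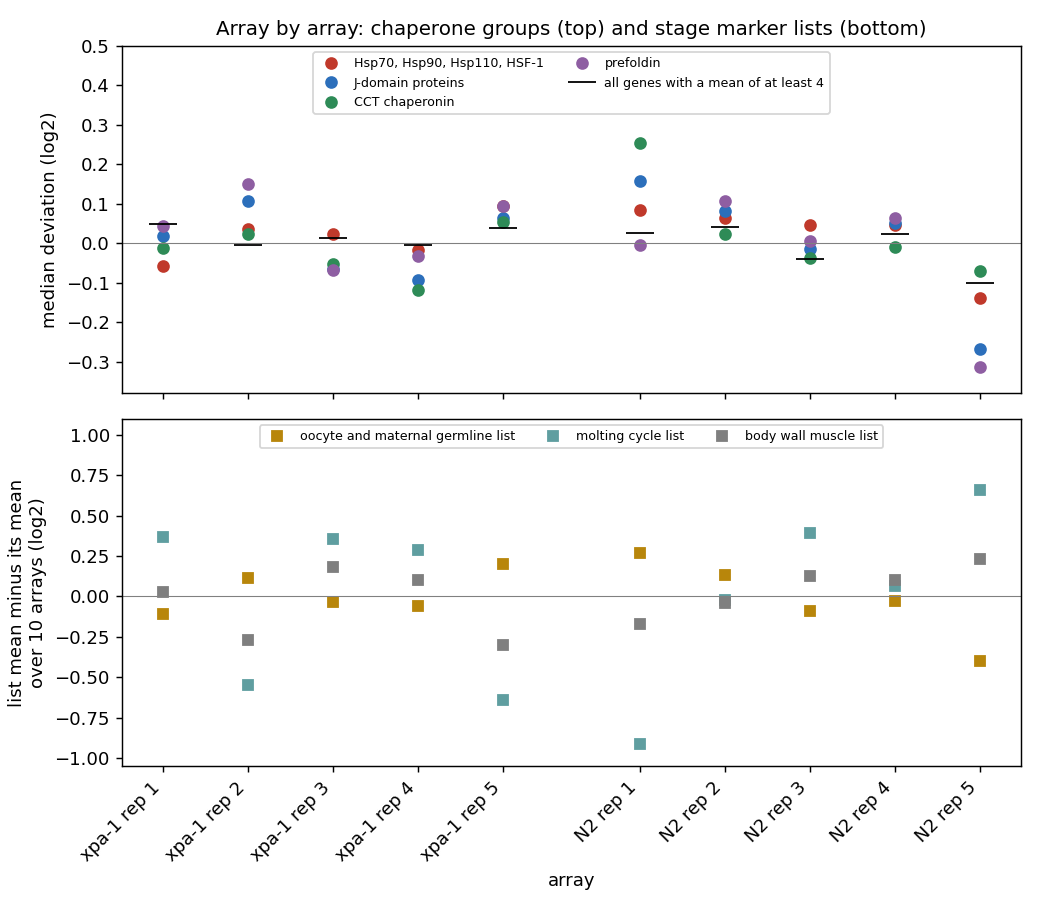
Top, median deviation in log2 of each chaperone group on each array (points) and of all genes with a mean of at least 4 (dashes); bottom, list mean of the oocyte, molting and muscle genes minus its mean over the 10 arrays. N2 replicate 5 has the lowest prefoldin and J-domain medians (-0.31 and -0.27), the lowest oocyte list and the highest molting list.

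Genes of partners and regulators of the chaperones did not pass either. Of 15 genes of Hsp70 and Hsp90 co-chaperones and nascent-chain factors, 0 passed in limma, against 0.111% of all genes. At an unadjusted p under 0.05 there were 0 of the 15, against 3.33% of all genes. The median difference of the 15 genes was 0.01, against 0.02 over all genes. Among them icd-1 and icd-2, the subunits of the nascent polypeptide-associated complex, averaged 10.86 ± 0.03 and 10.83 ± 0.10 in xpa-1, against 10.90 ± 0.09 and 10.84 ± 0.16 in N2 (SD, n = 5 each). The widest difference among them was that of pph-5, a phosphatase that binds Hsp90, at -0.37 (SE 0.177), with values between 2 and 3.17 on all arrays. Of 3 genes whose products bind HSF-1, hsb-1 differed by -0.07 (SE 0.135), ddl-1 by 0.13 (SE 0.101) and the dim ddl-2 by 0.43 (SE 0.478), and none passed.

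Heat-inducible reporters of HSF-1 were near the low end in both strains, as hsp-70 was. Of the 9 genes listed, 3 were measured by a probe set of their own. The small heat shock protein gene hsp-16.41 was listed at 0 on all 5 xpa-1 arrays and read 1, 1.58, 2, 0 and 0 on the N2 arrays. The difference of -0.92 did not pass (limma adjusted p = 1, exact permutation p = 0.167, two-sided). The gene hsp-16.2 of the same family, whose members are close in sequence, averaged 2.10 ± 0.38 in xpa-1 and 1.96 ± 0.65 in N2 (SD, n = 5 each).

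Of the 48 genes, hsf-1 lay closest in gene order to a gene that differed between the strains. By the gene order that RefSeq gives for WBcel235, in which all 48 genes were found, tmem-189 is 3 measured genes away from hsf-1 on chromosome I. The signals of tmem-189 were 7.49, 7.36, 7.52, 7.47 and 7.26 in xpa-1 and 6.34, 6.07, 6.34, 6.63 and 6.55 in N2, so the strains did not overlap (difference 1.03, SE 0.110, limma adjusted p = 0.00744). The F-box genes fbxa-124 and fbxa-122 beyond it rose by 1.14 and 0.89 (limma adjusted p = 0.00159 and 0.0496).

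Between hsf-1 and tmem-189 lie Y53C10A.1 (difference 0.10, SE 0.207) and rga-2 (-0.09, SE 0.483). On the far side of hsf-1, R06C1.6 differed by 0.01 (SE 0.347) and R06C1.4 by 0.04 (SE 0.111). These genes and tmem-189 were named after their values were seen. The interval of hsf-1, -0.36 to 0.16, ends well below that of tmem-189, 0.79 to 1.28, and the difference between both genes was not tested. The next closest members were dnj-27, 21 measured genes from tmem-189, and pfd-6, 31 from mks-6. Their differences were 0.11 (SE 0.192) and 0.04 (SE 0.111).

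**Figure D5:**
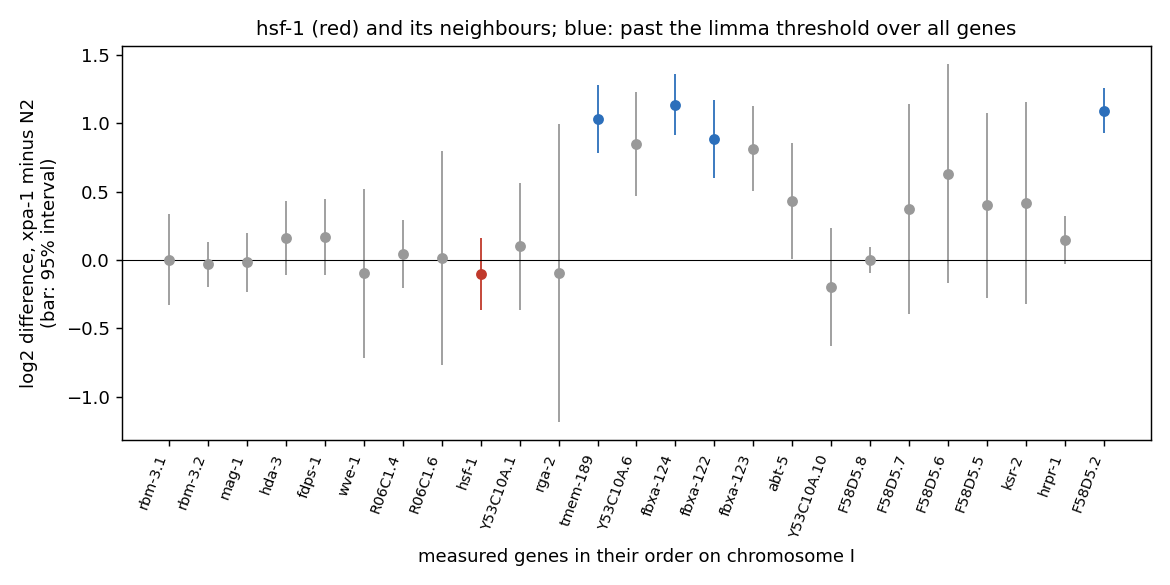
Log2 difference, xpa-1 minus N2, with 95% intervals for measured genes in their order along chromosome I from 8 genes before to 16 genes after hsf-1 (red). Genes past the limma threshold over all genes are blue; hsf-1 lies at -0.10 and tmem-189, 3 genes on, at 1.03.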

How the data were processed

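Expression was read on 10 Affymetrix arrays, 5 of xpa-1 worms and 5 of N2 worms. The authors deposited log2 probe set signals, made with Affymetrix Expression Console per the submitters' processing notes; the sources used here do not give the summary method, background step or scaling. Of 134454 values under 5, 100% fell within 0.005 of a whole number's log2. The values were used as deposited. After 77 control probe sets were left out, 22548 probe sets were fitted with limma 3.58.1 in R 4.3.3 (lmFit, eBayes, strain as the only term, two-sided). Benjamini-Hochberg adjustment ran over 17118 genes with a threshold of 0.05. Differences are xpa-1 minus N2, with the SE and 95% interval of the fit. The exact permutation test used all 252 divisions of the arrays. The fit was tested on simulated data.

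The members, gene lists and tests were chosen with earlier results of these data known. Named genes were the Hsp genes, hsf-1, all cct and pfd genes, and dnj genes of known site or with the largest differences, signals or SDs; others named were chosen after their values were seen. Of the other pathway lists, those with an unadjusted p under 0.05 or, if none, the 2 brightest were named, and pph-5, ddl-2 and hsp-16.2 after their values were seen. Replicate numbers are shared by the strains, but nothing in the labels pairs them. Alternatives are given in the closing section.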

Additional observations from a re-analysis of the deposited data

Results flagged for a closer look

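In each strain the 5 values of each of the 48 genes were searched for 1 array far from the other 4. Of 96 such groups 5 held one, where chance gives about 1 in 20, and in all 5 it was N2 replicate 5, below the rest. The class A J-domain gene dnj-12 read 8.13 there, against 8.48 to 8.55 on the other N2 arrays. The auxilin gene dnj-25 read 6.23, against 6.52 to 6.63, and dnj-18 read 5.70, against 6.25 to 6.46. The prefoldin genes pfd-4 and pfd-6 read 7.22 and 6.66, against 7.81 to 7.88 and 7 to 7.12. On this array the oocyte list was also the lowest of all 10, at 9.08, and the part of that in these values was not tested. Without N2 replicate 5, 0 of the 48 genes passed in limma, as with it.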

How the results depend on the processing

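Under 9 other settings of the processing and with each of the 10 arrays left out in turn, 0 of the 48 genes passed in limma, and the smallest unadjusted p was that of cct-3 or pfd-3 in every setting. The difference of cct-3 stayed below 0, between -0.755 and -0.44 with 1 array left out. Among the 48 genes, 18 changed sign without N2 replicate 5 and 14 with array weights. The median over the prefoldin genes ran from -0.01 without N2 replicate 5 to 0.10 without xpa-1 replicate 3, and was -0.003 with array weights. The median over the J-domain genes ran from -0.05 to 0.05 with 1 array left out. Over all genes, 19 passed as deposited, 12 of 8678 with a mean of at least 4, and 5 with the replicate number as a block. The replicate block left 0 of the 48 genes past the threshold. Same-numbered arrays of the strains did not deviate together (correlation across genes from -0.27 to -0.03 over 5 pairs), so the numbers were not treated as pairs. The limit of these arrays lies in the dim genes: for cct-3, hsp-70 and dnj-24 the intervals reach more than 2-fold.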

Other observations

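The 48 genes lie on all 6 chromosomes, with median differences per chromosome from -0.03 to 0.03. The 11 genes on chromosome I, which carries xpa-1, had a median difference of 0.03 and a range from -0.10 for hsf-1 to 0.16 for pfd-3. The 11 on chromosome II had a median of 0.004, and 0 genes of either chromosome passed in limma.

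On chromosome IV, dnj-1, dnj-2 and pfd-4 lie within 5 measured genes of each other in the order of assembly WBcel235, and were the sole members so close together. All 3 had their lowest value on the same array, and the probe set of dnj-2 is of the class that can cross-hybridise. The gene dnj-1 read 7.15, 7.57, 7.10, 7.34 and 7.32 in xpa-1 and 7.23, 7.34, 7.30, 7.41 and 6.82 in N2. The gene dnj-2 read 6.93, 7.15, 6.70, 6.81 and 6.98 in xpa-1 and 7, 7.03, 6.79, 7.13 and 6.63 in N2. Both were highest on xpa-1 replicate 2 and lowest on N2 replicate 5, the array that was also the lowest for pfd-4. N2 replicate 5 was the lowest array for 25 of the 48 genes, neighbours or not, and xpa-1 replicate 2 the single highest for 10. Whether the 3 neighbours are more alike than other members was not tested.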
